A study of Sus scrofa with 8 samples.

Results

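The Krüppel-like factors (KLFs) are zinc finger transcription factors that bind GC-rich and CACCC-type DNA elements. The 10 genes described here are KLF2, KLF3, KLF4, KLF6, KLF7, KLF9, KLF10, KLF11, KLF12 and KLF13. They were taken by symbol from a table of 22366 features measured in pig, and all 10 were present. For KLF4 the table gives only the Ensembl identifier ENSSSCG00000005437, which a gene name table pairs with that symbol. Several of these proteins are known from mouse lymphocytes for holding cells out of division: KLF2 and KLF4 restrain the cycle in resting T and B cells, and KLF2 also switches on receptors that let lymphocytes recirculate. Others act mainly as repressors, KLF3 and KLF12 by recruiting the corepressor CtBP, and KLF9, KLF10, KLF11 and KLF13 by recruiting SIN3A.

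The study set out to characterize a porcine lymphoma by RNA sequencing of 8 libraries. The lymphoma was sampled as 6 clones, grown in complete RPMI medium after manual dissociation of the tumours and isolated by limiting dilution repeated 4 times. The lymph node tumour gave 4 of them and the spleen tumour 2. The controls were freshly prepared splenocytes, magnetically enriched for CD21+ cells as normal B cells and for CD3+ cells as normal T cells, with 1 library each. No genotype, strain, age or number of animals is given in the labels. Every clone was cultured and the labels give no culture for either control, so culture and lymphoma cannot be told apart in any difference below. Counts per library ran from 16415644 to 27253505. PAX5, a defining B cell factor, stood at 1923 ± 223 CPM in the clones (read counts scaled to library size with TMM factors; SD, n = 6), 1009 in CD21+ cells and 5.08 in CD3+ cells. Summed over 11 B cell markers the level was 3886 to 5055 CPM in the clones, 7190 for CD21+ and 355 for CD3+ cells. The summed level of 16 T and NK markers was 93.1 to 145 CPM in the clones, 185 for CD21+ and 10270.0 for CD3+ cells. Mitochondrially encoded genes took 6.16 to 7.66% of counts in the clones, 10.9% for CD21+ and 21.6% for CD3+ cells. Lymph node clone 4 stood somewhat apart, with Spearman correlations of 0.972 to 0.984 to the other clones, whereas the highest value for each of the other clones was 0.993 to 0.997.

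On the Sscrofa11.1 assembly, RefSeq places KLF2 on chromosome 2 at 61270733 to 61273037, KLF4 on chromosome 1 at 248604817 to 248609574 and KLF10 on chromosome 4 at 34430132 to 34435990. KLF11 lies on chromosome 3 at 126419011 to 126429890, KLF9 on chromosome 1 at 223723613 to 223747661 and KLF13 on chromosome 1 at 143499136 to 143540233. KLF3 lies on chromosome 8 at 30024978 to 30060981, KLF6 on chromosome 10 at 66488445 to 66497830, KLF7 on chromosome 15 at 110282399 to 110380165 and KLF12 on chromosome 11 at 45981096 to 46655472. These spans cover whole genes, exons and introns together. KLF3, KLF12 and KLF13 each overlap 1 RefSeq long noncoding RNA, by 452, 18496 and 6999 bases. None of those RNAs has a row under its name in the count table, and strandedness is not stated, so reads from them could not be separated.

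The comparison with CD21+ splenocytes asks how the clones differ from normal B cells. KLF4 was almost absent from the clones, KLF2 was several-fold lower, and KLF3, KLF6, KLF7 and KLF12 were also lower. KLF10, KLF9 and KLF13 went the other way. Of the 10 genes, 6 fell and 3 rose, and KLF11 did not pass (edgeR quasi-likelihood test, adjusted p under 0.05). Over all 13498 genes tested, 67.2% were called, 32.4% lower and 34.8% higher, so the share of KLF genes called lower was above the background and the share called higher was close to it. The median log2 fold change of the 10 was -1.04, beside 0.05 for all genes tested. All 10 genes, KLF11 included, had the CD21+ value outside the range of the 6 clones, as did 83.1% of all genes tested.

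KLF2 fell in every clone. Its level was 72.0, 40.3, 44.1 and 17.2 CPM in lymph node clones 1 to 4 and 41.0 and 22.6 CPM in spleen clones 1 and 2, against 193 CPM for CD21+ and 270 for CD3+ cells. The clones did not overlap either control, but differed 4.18-fold between the highest, lymph node clone 1, and the lowest, lymph node clone 4. The log2 fold change was -2.31 ± 0.51 against CD21+ cells (SE, edgeR adjusted p = 0.00410) and -2.81 ± 0.50 against CD3+ cells (adjusted p = 0.00110).

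KLF4, which restrains B cell division in mice and is also a factor of monocyte differentiation, was essentially lost. The clones held 2 counts in all, 1 in lymph node clone 3 and 1 in lymph node clone 4, against 1843 counts for CD21+ and 783 for CD3+ cells. Scaled for library size, that was 84.1 CPM in CD21+ and 46.2 CPM in CD3+ cells. The level was 6112-fold lower than in CD21+ cells, with a 95% counting interval of 1689.6 to 50507, and 3359-fold lower than in CD3+ cells, with an interval of 927 to 27783. These intervals cover counting error only. The fitted log2 fold changes passed in both comparisons (edgeR adjusted p = 7.92e-08 and 1.08e-07), and their size depends on the prior count. KLF4 passed the filter on low counts through the controls alone, so its call says little beyond the counts themselves.

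Many markers of other cells moved with this loss, but not all. Of 17 myeloid markers in the table, 12 fell and 2, MPO and FCGR1A, rose against the CD21+ library, beside 32.4% and 34.8% of all genes tested. The summed level of the myeloid markers was 127 to 169 CPM in the clones, 365 for CD21+ and 701 for CD3+ cells, where ITGAM alone gave 584. Against CD3+ cells 13 were tested, of which 7 fell and 3 rose, beside 35.1% and 36.8% of all genes tested. CSF1R of this list was not lost, at 28.9 to 48.9 CPM in the clones, 26.6 for CD21+ and 12.9 for CD3+ cells. CD163, MARCO and S100A12 had 0 counts in every clone, and stood at 16.2, 7.53 and 11.7 CPM in the CD21+ library. They passed the filter on low counts through that library alone, so their tests say little beyond the counts themselves. In the CD3+ library CD163 stood at 6.14 and MARCO at 2.13 CPM, and S100A12 had 0 counts there. The part of such cells in the KLF4 difference was not tested, and in bulk RNA fewer cells of a type and less RNA per cell cannot be told apart. For KLF2, which is also abundant in endothelium, 13 endothelial and stromal markers were summed, at 16.6 to 29.2 CPM in the clones, 258 for CD21+ and 119 for CD3+ cells. PECAM1, an adhesion molecule of endothelium and also of leukocytes, gave most of the control sums, at 184 CPM for CD21+ and 91.7 for CD3+ cells against 6.92 to 15.5 in the clones. The other large parts for CD21+ cells were FN1, a matrix protein, at 54.8 CPM and TEK, an endothelial receptor, at 15.5 CPM. VWF and CDH5 were at 0.137 and 0.0456 CPM in CD21+ cells and at 1.30 and 0.0590 CPM in CD3+ cells, and KDR and ROBO4 had 0 counts in CD21+ cells. Of the 7 of these that could be tested against CD21+ cells 5 fell and 1 rose, beside 32.4% and 34.8% of all genes tested. The 1 that rose was PDGFRB, at 3.34 to 10.1 CPM in the clones, 0.0913 for CD21+ and 0.118 for CD3+ cells. The part of these markers in the KLF2 difference was not tested.

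**Figure D1:**
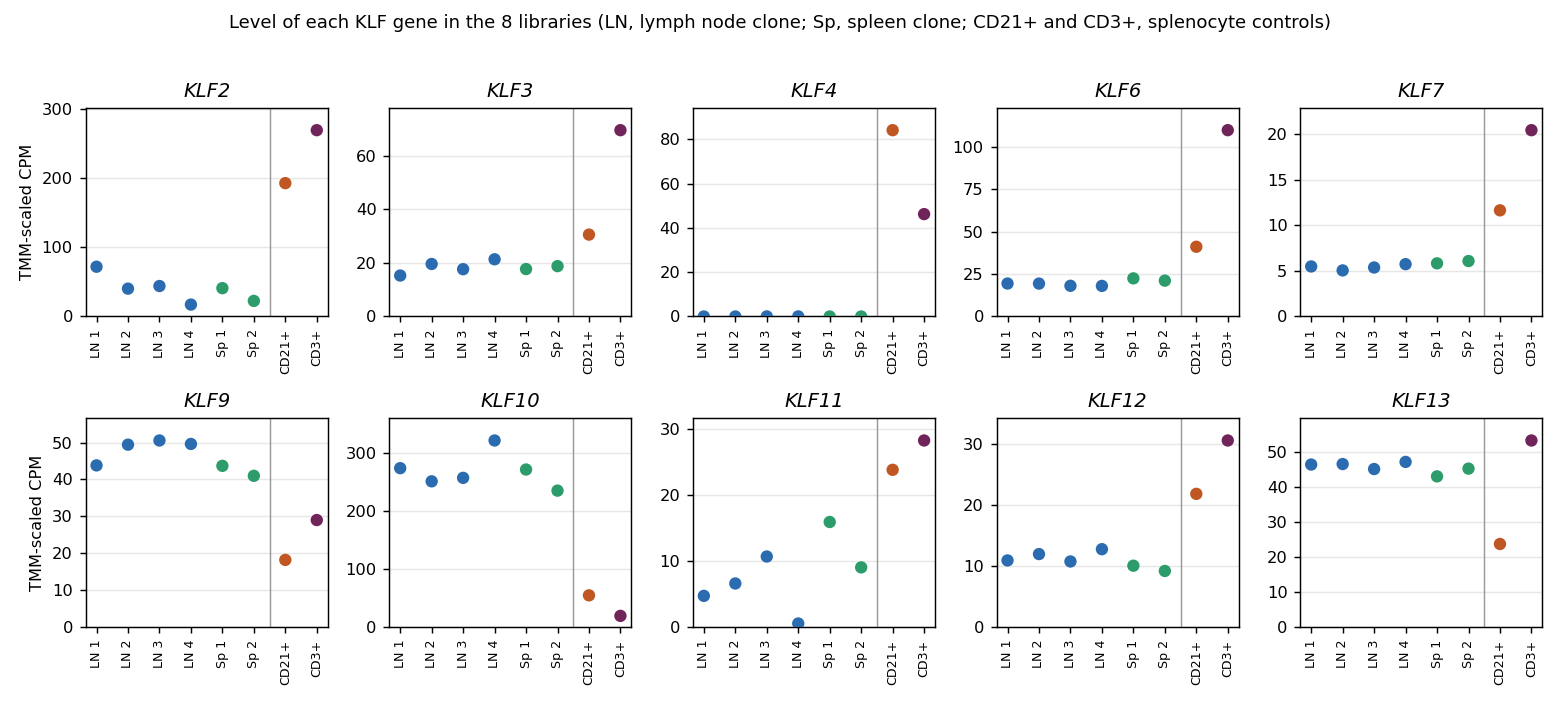
Level of each of the 10 KLF genes in every library, in TMM-scaled CPM on a linear axis that starts at 0, with 1 point per library and a separate scale per gene. Clones are to the left of the grey line and the controls to the right. KLF2 lies between 17.2 and 72.0 CPM in the clones and at 193 and 270 CPM in the controls, whereas KLF10 lies between 235 and 322 CPM in the clones and at 54.4 and 18.9 CPM in the controls.

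KLF3 and KLF12, the CtBP-recruiting repressors, fell to a lesser degree. KLF3 ranged from 15.3 to 21.3 CPM in the clones with a median of 18.2, against 30.5 in CD21+ cells, a log2 fold change of -0.74 ± 0.15 (edgeR adjusted p = 0.00278). KLF12 ranged from 9.18 to 12.8 CPM with a median of 10.8, against 21.9, a log2 fold change of -1.01 ± 0.17 (adjusted p = 0.000906). For both genes all clones lay below both controls.

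KLF6 and KLF7, a closely related pair known mainly as activators, fell by nearly equal amounts. KLF6 ranged from 18.0 to 22.4 CPM in the clones with a median of 19.4, against 41.0 in CD21+ cells, a log2 fold change of -1.07 ± 0.12 (edgeR adjusted p = 0.000120). KLF7 ranged from 5.05 to 6.08 CPM with a median of 5.61, against 11.6, a log2 fold change of -1.07 ± 0.16 (adjusted p = 0.000527). Both clone ranges lay below both controls.

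KLF10, first described as an early gene of the TGF-beta response, rose most of the 10 under edgeR in both comparisons. It stood at 274, 251, 257 and 322 CPM in lymph node clones 1 to 4 and at 272 and 235 CPM in spleen clones 1 and 2, against 54.4 for CD21+ and 18.9 for CD3+ cells. Every clone lay far above both controls. The log2 fold change was 2.29 ± 0.18 against CD21+ cells (edgeR adjusted p = 1.24e-05) and 3.79 ± 0.20 against CD3+ cells (adjusted p = 1.27e-06).

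KLF11, the nearest relative of KLF10 in the family, was the most uneven of the 9 genes with more than 2 counts in the clones. It stood at 4.69, 6.58, 10.7 and 0.502 CPM in lymph node clones 1 to 4 and at 15.9 and 9.01 CPM in spleen clones 1 and 2, against 23.8 for CD21+ and 28.3 for CD3+ cells. All clones lay below both controls, and the highest clone was 31.7 times the lowest. The log2 fold change was -1.60 ± 0.96 against CD21+ cells (edgeR adjusted p = 0.173) and -1.87 ± 0.95 against CD3+ cells (adjusted p = 0.107). Lymph node clone 4 decided the call: without it the log2 fold changes were -1.34 (adjusted p = 0.0306) and -1.62 (adjusted p = 0.0126).

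KLF9 and KLF13, SIN3A-recruiting relatives that bind GC boxes, both rose against CD21+ cells. KLF9, which slows entry into division in mouse B cells, ranged from 41.0 to 50.6 CPM in the clones with a median of 46.6, against 18.2 in CD21+ and 29.0 in CD3+ cells. All clones lay above both controls, and the log2 fold changes were 1.34 ± 0.14 (edgeR adjusted p = 7.04e-05) and 0.64 ± 0.13 (adjusted p = 0.00286).

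KLF13, a regulator of the chemokine gene CCL5 in T cells, ranged from 42.9 to 47.1 CPM with a median of 45.7, against 23.6 in CD21+ and 53.2 in CD3+ cells. The clones thus lay between the controls. KLF13 rose against CD21+ cells, at a log2 fold change of 0.93 ± 0.09 (edgeR adjusted p = 3.17e-05) and was lower than in CD3+ cells by a small margin, a log2 fold change of -0.26 ± 0.08 (adjusted p = 0.0145). That last direction turned with the scaling, to 0.19 (adjusted p = 0.0591) under total-count scaling.

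The comparison with CD3+ splenocytes asks the same from the T cell side. Of the 10 genes 7 fell and 2, KLF9 and KLF10, rose, beside 35.1% of 13560 genes tested called lower, 36.8% called higher and 72% called either way (edgeR adjusted p under 0.05). The differences were larger than against CD21+ cells for KLF3, at a log2 fold change of -1.95 ± 0.14 (adjusted p = 5.28e-06), KLF6, at -2.51 ± 0.11 (adjusted p = 4.07e-07), KLF7, at -1.91 ± 0.15 (adjusted p = 8.80e-06), and KLF12, at -1.52 ± 0.16 (adjusted p = 5.23e-05). Both comparisons use the same 6 clones, so these values differ only through the controls. The median of the 10 was -1.89, beside 0.05 for all genes tested. All 10 genes had the CD3+ value outside the range of the clones, as did 86% of all genes tested. Total-count scaling moved the median of all genes from 0.05 to 0.35 against CD21+ cells and from 0.05 to 0.51 against CD3+ cells. It gave 6189 higher of 9282 genes called, in place of 4697 of 9069, and 6852 of 9967, in place of 4992 of 9757. The KLF genes still split into 3 higher and 6 lower against CD21+ cells, and into 2 higher and 6 lower against CD3+ cells.

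**Figure D2:**
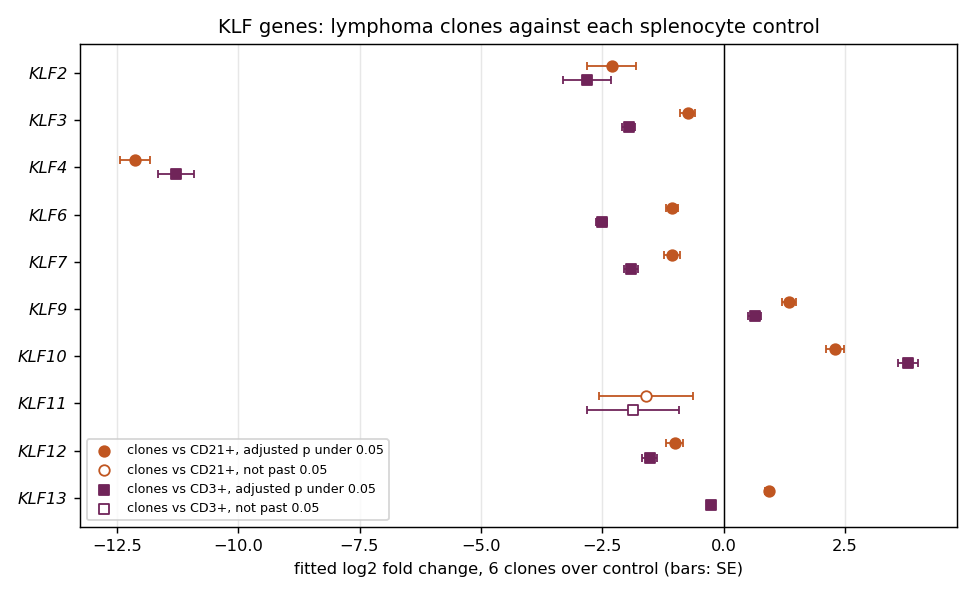
Fitted log2 fold change of each KLF gene, 6 clones over the CD21+ library (circles) or the CD3+ library (squares), with bars of 1 SE from edgeR. Filled symbols have an adjusted p under 0.05. KLF9 and KLF10 lie right of 0 in both comparisons, KLF13 changes side, turning positive in both under total-count scaling, and KLF4 lies near -12.13 and -11.28, values that depend on the prior count.

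In the authors' deposited table of their own test of CD21+ cells against the 6 clones, the same 9 of 10 genes had a false discovery rate under 0.05. All 10 had the same sign there as in the fit above. Both tests rest on the same counts of the same 7 libraries, so the match is not independent evidence. The authors' deposited table gave KLF10 a fold of 4.94 with a false discovery rate of 5.76e-47, KLF2 a fold of -4.88 with 4.47e-08 and KLF11 a fold of -3.02 with 0.132, where a minus sign means lower in the clones.

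The controls themselves differed in these genes. With 1 library each, neither control has a spread of its own, so they were compared by size alone and no test was made. The ratios are given with 95% intervals of counting error alone. At a 2-fold rule, 3 of the 10 genes were higher in CD3+ and 1 higher in CD21+ cells, beside 16.9% and 13.8% of the 11963 genes that reached 1 CPM in either. KLF6 was 2.67-fold (2.47 to 2.90), KLF3 2.28-fold (2.07 to 2.51) and KLF13 2.25-fold (2.02 to 2.51) higher in the CD3+ library. KLF10 was 2.88-fold higher in the CD21+ library (2.54 to 3.27), and KLF4 1.82-fold (1.67 to 1.98). KLF2 was 1.40-fold higher in the CD3+ library (1.34 to 1.46). KLF11 came closest to equal levels, 1.19-fold higher in CD3+ cells (1.05 to 1.35).

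The make-up of the family was accordingly different. The summed level of the 10 genes was 408 to 494 CPM in the clones, 502 for CD21+ and 676 for CD3+ cells. KLF10 supplied 58.0 ± 3.61% of the family's counts in the clones (SD, n = 6), from 55.7 to 65.1%. It supplied 10.8% in the CD21+ library (95% Wilson interval 10.3 to 11.4) and 2.80% in the CD3+ library (2.51 to 3.11). KLF2 supplied 8.49 ± 3.82% in the clones, 38.4% in the CD21+ library (37.5 to 39.4) and 39.9% in the CD3+ library (39.0 to 40.8). Counts grow with transcript length, so these shares compare a gene between libraries and do not rank the genes.

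**Figure D3:**
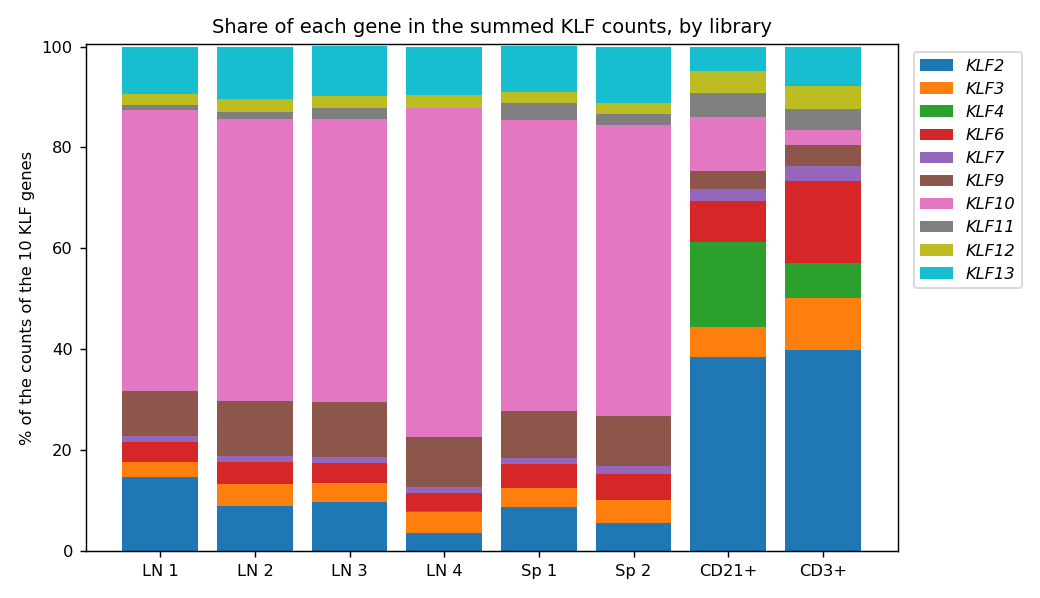
Share of each gene in the summed counts of the 10 KLF genes, in % of counts, as 1 stacked bar per library (LN, lymph node clone; Sp, spleen clone). KLF10 fills 55.7 to 65.1% of each clone and KLF2 fills 38.4% and 39.9% of the controls.

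The comparison of the tumour sites asks whether lymph node and spleen clones differ. Of 9 KLF genes tested, 0 passed, as did 0 of all 12580 genes (edgeR, 0% called). At an unadjusted p under 0.05 there were 605 genes, or 4.81%, with KLF6 and KLF9 among them, both at an edgeR adjusted p of 0.942. DESeq2 called 20 genes and limma-voom 0, with 0 KLF genes under either. KLF4 was too low to be tested. In 4 of the 9 genes the ranges of the sites did not overlap, beside 15.5% of all genes tested. KLF6 was 18.7 ± 0.777 CPM in lymph node clones (SD, n = 4) and 21.8 ± 0.949 in spleen clones (SD, n = 2), and KLF7 5.41 ± 0.284 and 5.95 ± 0.179. KLF9 was 48.4 ± 3.08 and 42.4 ± 1.91 CPM, and KLF12 11.6 ± 0.946 and 9.61 ± 0.612. Of the tested genes KLF11 had the largest fitted difference, a log2 fold change of -1.15 ± 0.82 (edgeR adjusted p = 0.964), so at this spread a difference of that size was not detectable.

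The spread between clones set KLF2 and KLF11 apart. The coefficient of variation over the 6 clones was 48.8% for KLF2 and 67.0% for KLF11, where counting alone would give 3.31% and 7.11%. Among the 9945 genes tested with a mean of 5 CPM or more in the clones, the median was 8.30%, and KLF2 and KLF11 lay above 99.2% and 99.6% of these genes. KLF3, KLF6, KLF9, KLF10 and KLF12 varied by 8.65 to 11.8%. KLF13 was the steadiest of the 9, at 3.25% beside a counting share of 3.02%, and lay above 5.04% of the genes.

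**Figure D4:**
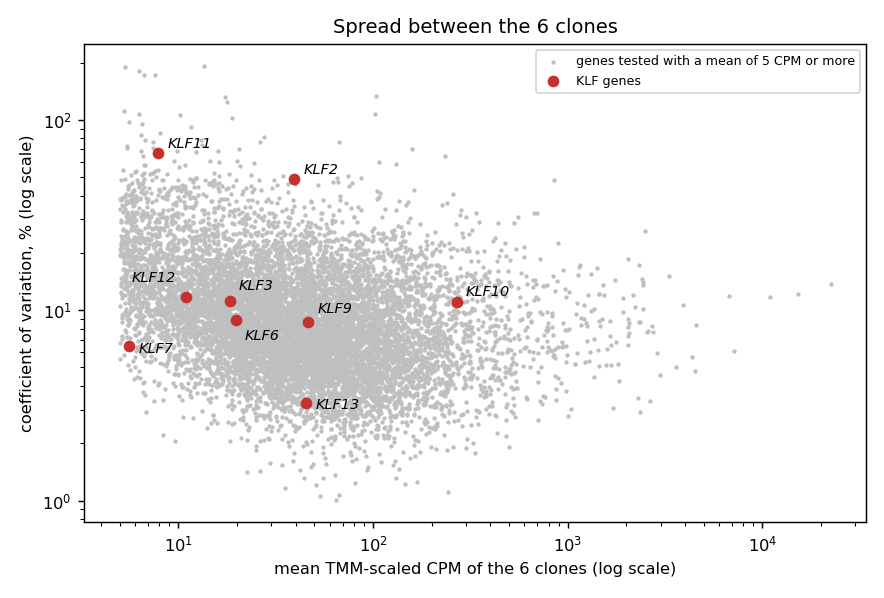
Coefficient of variation over the 6 clones in % against the mean level in TMM-scaled CPM, both on log scales, with 1 grey point per gene tested that has a mean of 5 CPM or more and the 9 KLF genes above that level in red. KLF11 at 67.0% and KLF2 at 48.8% lie near the top of the cloud, and KLF13 at 3.25% near its lower edge.

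Genes that KLF2 is known to govern in mouse lymphocytes fell almost without exception. The list held trafficking genes that KLF2 activates or is needed for, chemokine receptors that rise in mouse T cells lacking KLF2 (CXCR3 and CCR3 among them), and other lymphocyte surface genes. Of 11 members tested against CD21+ cells 10 fell and 0 rose, beside 32.4% and 34.8% of all genes tested. CCR3 did not pass, at 0.202 ± 0.125 against 0.685 CPM (edgeR adjusted p = 0.0777). The median over the list was -2.81 on the log2 scale. Against CD3+ cells 9 fell and FCER2 rose, beside 35.1% and 36.8% of all genes tested, and CXCR5 did not pass. The median of the list was -4.53 there.

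S1PR1, the receptor that guides lymphocytes out of lymphoid organs, stood at 0.545 to 2.09 CPM in the clones and at 281 and 426 CPM in the CD21+ and CD3+ libraries. The highest clone was lymph node clone 1, which also had the most KLF2. ITGB7, an integrin chain for homing to the gut, stood at 5.62 to 22.9 CPM against 238 and 451 CPM, again highest in lymph node clone 1. CCR7, the receptor for entry into lymph nodes, stood at 12.9 to 17.7 CPM against 60.3 and 201 CPM, and was highest in lymph node clone 2. The lowest clone was spleen clone 2 for S1PR1 and ITGB7 but lymph node clone 4 for KLF2, so these genes did not rank the clones alike. For S1PR1, ITGB7 and CCR7 the clones lay below both controls, at log2 fold changes against CD21+ cells of -7.94 ± 0.25, -4.50 ± 0.45 and -2.01 ± 0.15 (edgeR adjusted p = 1.60e-07, 4.99e-05 and 1.17e-05).

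**Figure D5:**
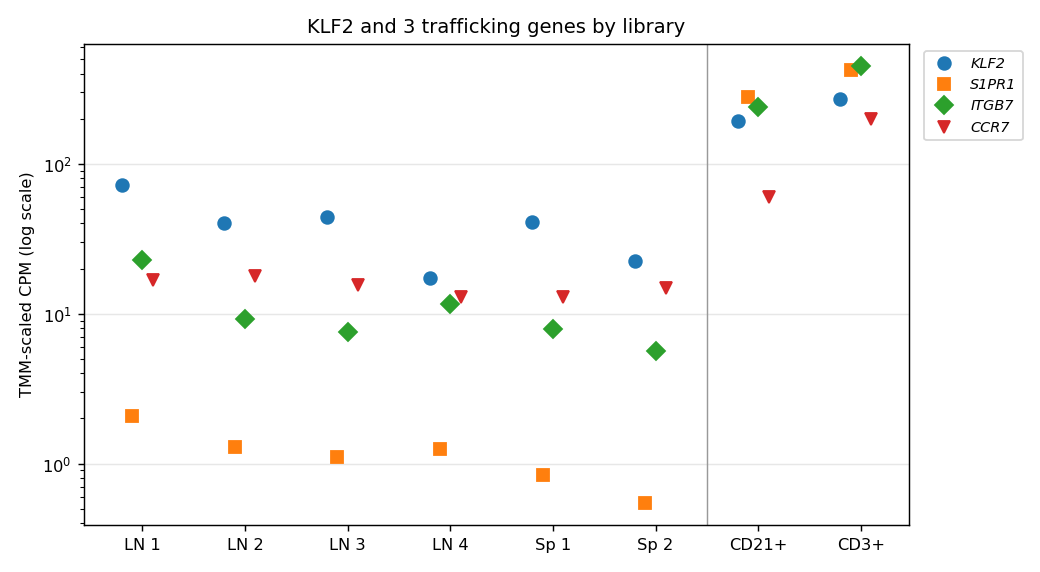
Level of KLF2 and of S1PR1, ITGB7 and CCR7 in each library, in TMM-scaled CPM on a log scale, with 1 symbol per gene and library (LN, lymph node clone; Sp, spleen clone). S1PR1 stays at or below 2.09 CPM in the clones and is at 281 and 426 CPM in the controls.

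Other regulators of lymphocyte quiescence were split. Of 27 tested against CD21+ cells 15 fell and 9 rose, beside 32.4% and 34.8% of all genes tested, with a median log2 fold change of -0.81. Against CD3+ cells 16 fell and 6 rose, beside 35.1% and 36.8% of all genes tested, with a median of -1.002. NR4A1, ZFP36 and BTG2 of this list are immediate-early genes as well, and FOXO1 and FOXO3 are also counted among the upstream factors below. PIK3IP1, an inhibitor of PI3 kinase, had a log2 fold change of -4.09 ± 0.22 and TSC22D3, a glucocorticoid-induced regulator, one of -3.75 ± 0.17 (edgeR adjusted p = 1.81e-06 and 9.00e-07). TXNIP, a brake on glucose uptake, rose from 62.8 to 1148 ± 193 CPM, a log2 fold change of 4.18 ± 0.30 (adjusted p = 8.75e-06). CDKN1C, an inhibitor of cyclin-dependent kinases, had 1073 counts over the clones, at 7.37 ± 0.993 CPM, against 2 counts in the CD21+ library. The members that rose were CDKN1A, CDKN1B, CDKN1C, CDKN2C, CDKN2D, FOXO1, RB1, RBL1 and TXNIP. Against CD3+ cells they were CDKN1A, CDKN1C, CDKN2C, RBL1, TXNIP and ZFP36L1.

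Upstream factors gave no common direction. Of 15 tested against CD21+ cells 5 rose and 6 fell, beside 34.8% and 32.4% of all genes tested. Total-count scaling turned the counts to 6 and 4. MEF2A, of a family that activates KLF2 and KLF4 downstream of the kinase ERK5, stood at 90.9 to 103 CPM against 19.6, a log2 fold change of 2.32 ± 0.11 (edgeR adjusted p = 8.43e-07). In CD3+ cells it stood at 128 CPM. The other MEF2 genes did not move alike. MEF2B stood at 8.59 to 12.6 CPM in the clones, 28.8 for CD21+ and 22.0 for CD3+ cells. MEF2C stood at 532 to 659 CPM in the clones, 336 for CD21+ and 6.26 for CD3+ cells. MEF2D stood at 240 to 306 CPM in the clones, 228 for CD21+ and 164 for CD3+ cells. MAPK7, the gene of ERK5, stood at 39.0 to 54.0 CPM in the clones, 68.7 for CD21+ and 66.4 for CD3+ cells. Against CD3+ cells 4 upstream factors rose and 10 fell, beside 36.8% and 35.1% of all genes tested. Under total-count scaling the counts were 5 and 3.

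Genes of the TGF-beta pathway, which induces KLF10 and KLF11, were split as well. Of 15 tested against CD21+ cells 3 rose and 5 fell, beside 34.8% and 32.4% of all genes tested. Against CD3+ cells 4 rose and 6 fell, beside 36.8% and 35.1%. Under total-count scaling the counts were 4 and 3 against CD21+ cells, and 5 and 5 against CD3+ cells. SMAD7, an inhibitor that the pathway itself induces, had a log2 fold change of -2.29 ± 0.18 (edgeR adjusted p = 1.20e-05), and the receptor gene TGFBR2 one of 0.48 ± 0.19 (adjusted p = 0.0463). TGFB3, a ligand, rose from 0.411 to 2.54 ± 0.302 CPM, while SMURF1, a ubiquitin ligase of the pathway, fell from 100.7 to 7.21 ± 1.82 CPM.

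KLF2, KLF4, KLF6 and KLF10 are also known as early response genes, so immediate-early genes were read beside them. Of 21 tested against CD21+ cells 18 fell and 0 rose, beside 32.4% and 34.8% of all genes tested. The median log2 fold change of the 21 was -2.82. A gene of the list of KLF2 targets is counted among them as well, so the lists are not separate. The summed level of the immediate-early genes was 928 to 1219 CPM in the clones, 7837 for CD21+ and 5567 for CD3+ cells. FOSB, a subunit of AP-1, had a log2 fold change of -5.72 ± 0.48 and EGR1, a growth-factor-induced zinc finger factor, one of -5.37 ± 0.34 (edgeR adjusted p = 1.90e-05 and 4.71e-06). KLF10 moved against this group and KLF2, KLF4 and KLF6 with it, and the part of handling or activation of the control cells in these differences was not tested. Against CD3+ cells 16 immediate-early genes fell and MYC rose, beside 35.1% and 36.8% of all genes tested.

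Genes with the most similar profile over the 8 libraries were sought for each member by Pearson correlation of log2(CPM + 1) among 10109 genes. Such values rest largely on the step between 6 clones and 2 controls and are given as a description. For KLF2 they were GPR183, a chemotactic receptor of lymphocytes, MYBPC3 and ARHGEF3, at 0.990 to 0.994. GPR183 stood at 1.72 to 16.5 CPM in the clones and at 109 and 189 CPM in the CD21+ and CD3+ libraries. For KLF10 they were ARCN1, AFF2 and PPM1B, at 0.998 to 0.999. AFF2 stood at 162 to 213 CPM in the clones against 9.72 and 1.06 CPM. For KLF4 they were METTL27, the feature ENSSSCG00000022701 and PLCB2, at 0.999 or above. PLCB2, a phospholipase, stood at 0 to 0.190 CPM in the clones against 207 and 137 CPM. For KLF11 they were SLC36A1, CHCHD7 and PRKCE, at 0.959 to 0.964, the lowest values of the 10 genes. For KLF13, where the clones lay between the controls, they were UMODL1, ITGA5 and APBB1, at 0.993 to 0.996.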

How the data were processed

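RNA of 8 pig libraries was read as read counts per feature, deposited by the authors as a table of 7 libraries and one of all 8. The shared counts were identical for all 22366 features. Per the submitters' processing notes the tools were Trimmomatic, Bowtie2 and edgeR, with no version. Reads were aligned to Sscrofa11.1, per the series description. For the counting tool, annotation and strand, nothing was given in the sources used here. The authors' RPM values equalled count over total within 7.3e-12. From the authors' deposited test table the p-values (as false discovery rates) and the signed fold, a score, were copied unchanged. The last 2 lines of the larger table hold totals and were left out. Symbols from a name table were given to 877 of 6841 features with an Ensembl ID alone.

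Levels are CPM with TMM factors over the 8 libraries. Tests used edgeR 4.0.16 (R 4.3.3, quasi-likelihood, TMM, filterByExpr, two-sided, Benjamini-Hochberg over all genes tested, threshold 0.05), and were tested on simulated data. SE is the log2 fold change over the root of F. Against a lone control the residual spread is that of the 6 clones, with the control taken to vary likewise. The simulated data were drawn with that same assumption, so they cannot check it. No label names an animal, so a p-value reflects the variation among these clones alone, which may be technical. Intervals are exact binomial for ratios and Wilson for shares, at 95%. Alternatives were RLE, total-count scaling, DESeq2 1.42.0, limma-voom 3.58.1, other filters and library sets, and leaving out each clone.

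All 10 members are named. Of the other lists, the rule took the 2 largest changes in each direction, the trafficking genes and the 3 most alike genes per member. Some genes counted in the list of KLF2 targets are not reported here. Other genes named were chosen after their values were seen. Members and lists were chosen with earlier results of these data known. No sequences were used here.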

Additional observations from a re-analysis of the deposited data

Results flagged for a closer look

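KLF9 in lymph node clone 1 stood apart from the other lymph node clones, at 43.8 CPM against 49.5 to 50.6. The gap to the nearest value was 0.833 of the range of the 4 clones, just past the critical value of Dixon's test. Over all 6 clones the value was 0.282, below its critical value, with spleen clones at 41.0 and 43.7 CPM. This was 1 flag in 20 such tests, and chance flags about 1 in 20.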

How the results depend on the processing

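Against CD21+ cells, 9 of the 10 KLF genes passed in the fit as reported and under RLE factors, total-count scaling, DESeq2, limma-voom, no filter, 1 fit of all libraries and without mitochondrially encoded genes, and leaving out single clones gave 9 to 10. Against CD3+ cells the count was 9, but 8 under total-count scaling, where KLF13 turned to 0.19, and 9 to 10 without single clones. KLF2 kept its direction in both, at -2.56 to -2.0 and -3.07 to -2.35 over the alternatives, with adjusted p up to 0.0104 and 0.00381, and KLF10 too, at 2.23 to 2.59 and 3.73 to 4.25. KLF11 ran from -2.18 to -1.29 against CD21+ cells (adjusted p 0.0306 to 0.290). The cause of these shifts was not tested. Of 130 single-gene values against CD21+ cells 129 kept their direction and side of the threshold, and 128 of 130 against CD3+ cells. Upstream factors called against CD3+ cells fell from 14 to 8 under total-count scaling.

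Between sites 0 KLF genes passed in the reported fit and every alternative but the replicate block. KLF3, at 0.02, ran from -0.05 to 0.1 without single clones: it turned to -0.01 without lymph node clone 2, -0.05 without lymph node clone 4 and -0.02 without spleen clone 1. With the replicate number as a block over numbers 1 and 2, 1 KLF gene passed, KLF2 at 0.83 (adjusted p = 0.0156), KLF3 turned to -0.06, and 345 genes were called in place of 0. Deviations from the site means correlated at 0.273 and -0.074 between same-numbered clones. With only 2 spleen clones the crossed pairs must give the same values with opposite sign, -0.273 and 0.074. These values therefore cannot decide whether same-numbered clones share more than a number. Depth limits KLF4 in the clones, where 3 counts came to 0.0206 CPM over the 6 libraries.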

Other observations

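Beyond the 10 genes, 16 other KLF and SP family genes were in the table and 10 could be tested against CD21+ cells. Of these 3 were higher and 3 lower, beside 34.8% and 32.4% of all genes tested. Under total-count scaling the counts were 5 and 2. SP7, known as a regulator of bone-forming cells, stood at 17.7 CPM (387 counts) for CD21+ cells, at 1.65 CPM for CD3+ cells and at 0.210 to 0.524 CPM in the clones, a log2 fold change of -5.72 ± 0.31 against CD21+ cells (edgeR adjusted p = 2.01e-06). SP4 rose slightly, at a log2 fold change of 0.40 ± 0.11 (edgeR adjusted p = 0.0113). KLF8 rose from 0.913 to 3.27 ± 0.832 CPM (adjusted p = 0.00671) and KLF15 from 3.83 to 6.02 to 9.22 CPM (adjusted p = 0.00866). For KLF5 the 6 clones gave 3 counts and CD21+ cells 20, which is 44.2-fold lower per scaled read (95% interval of counting error 13.1 to 232). Against CD3+ cells 8 were tested, with 3 higher and 3 lower, beside 36.8% and 35.1% of all genes tested (4 and 2 under total-count scaling). Among the lower ones was SP4, at a log2 fold change of -1.53 ± 0.09.

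Of 18 KLF cofactor genes tested against CD21+ cells 5 rose and 5 fell, beside 34.8% and 32.4% of all genes tested. Under total-count scaling the counts were 9 and 3. CTBP2, one of the CtBP corepressors that KLF3 and KLF12 recruit, stood at 38.9 to 63.2 CPM in the clones, 0.867 for CD21+ and 3.66 for CD3+ cells, with log2 fold changes of 5.94 ± 0.41 and 3.84 ± 0.33 (edgeR adjusted p = 6.53e-06 and 1.81e-05). Its relative CTBP1 did not pass against CD21+ cells, at a log2 fold change of -0.07 (adjusted p = 0.471). HDAC1, a deacetylase of SIN3A complexes, stood at 97.9 ± 12.5 against 233 CPM. Against CD3+ cells 7 cofactors rose and 8 fell, beside 36.8% and 35.1% of all genes tested (8 and 4 under total-count scaling).

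Of 9 ubiquitin ligases of KLF proteins tested against CD21+ cells 2 rose and 4 fell, beside 34.8% and 32.4% of all genes tested. Under total-count scaling the counts were 3 and 3. SMURF1 and SMURF2 of this list are also counted in the TGF-beta pathway. FBXO32 stood at 1.08 ± 0.424 against 10.8 CPM. Against CD3+ cells 1 ligase rose and 4 fell, beside 36.8% and 35.1% of all genes tested (4 and 2 under total-count scaling).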
